A study of Mus musculus with 19 samples.

Results

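Small leucine-rich proteoglycans are described here across 19 RNA sequencing libraries made from the plantaris tendon of mice, which runs along the back of the hindlimb to the foot. The genes are decorin (Dcn), biglycan (Bgn), asporin (Aspn), fibromodulin (Fmod), lumican (Lum), Prelp, keratocan (Kera), osteomodulin (Omd), osteoglycin (Ogn) and the related protein gene chondroadherin (Chad). They were chosen by name, as known family members, but with earlier results of these data known. They make up 10 of the 24972 genes listed, and all 10 passed the filter on low values. The controls (n = 3 libraries) came from Scx+ mice given neither tamoxifen nor a growth stimulus. The other 4 groups (n = 4 each) came from tamoxifen-treated mice, either Scx+ or Scx-, in which a growth stimulus had run for 7 or 14 days. Scx- marks deletion of the gene of the tendon transcription factor scleraxis (Scx). The alleles and the Cre that drives the deletion, the kind of stimulus, and the strain, sex and age are not given in the sources used here. No unstimulated Scx- group was analysed, every stimulated group also had tamoxifen, and nothing states that libraries came from separate animals, so each p measures the spread between these samples.

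These secreted proteins carry a curved stack of leucine-rich repeats that binds collagen fibrils, and most carry sugar chains that sit between fibrils. Decorin and biglycan bear chondroitin or dermatan sulfate, while fibromodulin, lumican and keratocan can bear keratan sulfate. In tendon the family is known for controlling how fibrils nucleate, widen and fuse. Fibromodulin and lumican can occupy the same site on type I collagen, and biglycan is known as a form more prominent in growing or healing tendon than in mature tendon.

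The genes lie in clusters (GENCODE M21 annotation, GRCm38). Dcn (chr10:97479609-97518143), Lum (chr10:97565128-97572703) and Kera (chr10:97606879-97613692) follow one another on the plus strand, with gaps of 47.0 and 34.2 kb. Aspn (chr13:49544443-49567565), Omd (chr13:49582462-49592822) and Ogn (chr13:49608046-49624501) lie on the plus strand with gaps of 14.9 and 15.2 kb. All 3 sit inside Cenpp on the minus strand, whose exons share 7 bases with those of Aspn. Prelp (chr1:133910304-133921414, minus strand) and Fmod (chr1:134037254-134048277, plus strand) are 115.8 kb apart, and 350 exon bases of Prelp overlap the antisense gene Gm15851. Bgn (chrX:73483602-73495933) and Chad (chr11:94565047-94569127) stand apart from the rest, and Chad lies inside Acsf2 on the other strand with 0 shared exon bases. Whether the counting used strand is not stated.

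Scleraxis belongs to a class of transcription factors that bind the E-box, CANNTG. The 250 bases before the RefSeq start (GRCm38.p6) are shown for Fmod and Chad, which fell in Scx- at day 7, and for Bgn, which rose against the control in both genotypes. Sequences run 5′ to 3′ on the plus strand, and capitals mark each CANNTG.
Fmod (chr1:134037004-134037253): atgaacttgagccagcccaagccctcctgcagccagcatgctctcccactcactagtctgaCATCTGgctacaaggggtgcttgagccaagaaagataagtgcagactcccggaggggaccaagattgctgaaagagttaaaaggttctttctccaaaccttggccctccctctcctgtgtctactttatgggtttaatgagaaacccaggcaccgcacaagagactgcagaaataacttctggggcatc
Chad (chr11:94564797-94565046): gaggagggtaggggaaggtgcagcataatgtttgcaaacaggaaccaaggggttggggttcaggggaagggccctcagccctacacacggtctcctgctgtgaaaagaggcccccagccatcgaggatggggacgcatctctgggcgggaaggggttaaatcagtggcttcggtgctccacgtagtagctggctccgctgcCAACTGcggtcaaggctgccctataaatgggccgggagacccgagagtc
Bgn (chrX:73483351-73483600): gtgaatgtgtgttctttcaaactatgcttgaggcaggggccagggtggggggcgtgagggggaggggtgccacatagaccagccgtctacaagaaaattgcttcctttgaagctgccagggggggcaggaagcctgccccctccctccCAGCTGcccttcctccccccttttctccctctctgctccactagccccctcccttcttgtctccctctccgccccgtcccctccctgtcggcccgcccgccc
Fmod held 1 E-box, CATCTG, starting 189 bases before the start site. Chad held 1, CAACTG, at 49 bases, and Bgn 1, CAGCTG, at 102 bases. Aspn held 1 and Ogn 3, and Kera, Omd and Prelp held 0. Dcn and Lum had no entry among the promoter sequences used and were not searched. CANNTG reads the same on both strands as a pattern and was found in 66.2% of 32851 promoters of this length, CAGATG or its reverse complement CATCTG in 14.4% and CAGCTG in 13.0%. At least 3 matches were found in 12.2%. These matches describe the letters only.

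The deposited signal summed to between 36.6 and 79.8 M (mega) units per library, and values below are signals rescaled to a common median, with no read depth known. Scx itself stood at 1.66 to 17.2 in the 8 Scx- libraries, 2096 to 8044 in the 8 stimulated Scx+ libraries and 319 to 593 in the controls. Genes of skeletal muscle fibres took 27.1 ± 2.67% of the signal in controls (SD, n = 3), against 1.13 ± 1.15% and 3.20 ± 2.48% in Scx+ and Scx- at day 7. They took 4.27 ± 3.70% and 11.2 ± 7.81% at day 14 (SD, n = 4 each). In bulk tissue, fewer cells of a type and less RNA per cell cannot be told apart, and the part of muscle RNA in the results below was tested only by a covariate and by leaving libraries out. Every control library had a larger muscle share than every stimulated library. Against control the covariate can therefore hardly separate muscle RNA from the group. The 10 genes took 0.375 ± 0.246% of the signal in controls (SD, n = 3), 1.41 ± 0.289% and 1.06 ± 0.250% in Scx+ and Scx- at day 7, and 1.78 ± 0.412% and 1.23 ± 0.764% at day 14 (SD, n = 4 each).

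To compare levels between genes, each signal was divided by the length of the main transcript, and each gene was taken as a share of the sum of the 10. On this scale decorin led the control pool with 45.0 ± 4.68%, followed by chondroadherin with 16.0 ± 4.27%, biglycan with 13.6 ± 1.63% and fibromodulin with 13.3 ± 3.67% (SD, n = 3). In stimulated tendon the order was another. Biglycan held 35.6 ± 3.86% in Scx+ and 43.0 ± 5.37% in Scx- at day 7, ahead of decorin with 29.5 ± 2.28% and 31.2 ± 0.647% (SD, n = 4 each). At day 14 decorin and biglycan held 31.5 ± 5.20% and 30.0 ± 5.87% in Scx+, and 40.1 ± 6.96% and 32.4 ± 9.98% in Scx-. Asporin held 11.2 ± 0.761% in Scx+ and 6.06 ± 1.96% in Scx- at day 14, without overlap. Chondroadherin held 0.779 ± 0.377% and 0.0704 ± 0.0508% in Scx+ and Scx- at day 7, and 1.18 ± 0.546% and 0.369 ± 0.432% at day 14 (SD, n = 4 each). Fibromodulin held 9.004 ± 1.51% in Scx+ and 2.06 ± 1.30% in Scx- at day 7, and 9.36 ± 2.31% and 2.87 ± 1.05% at day 14. Its highest Scx- share was 4.35% and its lowest Scx+ share 7.33%, so the genotypes did not overlap at either day. These shares, and the order of the genes, depend on the length used. With all annotated exons as the length, a choice made after seeing the data, chondroadherin led the control pool with 26.6%, ahead of decorin with 22.9% and fibromodulin with 20.8%. In Scx- at day 14 lumican (26.0%) and biglycan (24.9%) then stood ahead of decorin (23.2%), while biglycan led the other 3 stimulated groups. Fibromodulin then held 14.8% and 3.71% in Scx+ and Scx- at day 7, and 14.9% and 5.24% at day 14.

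**Figure D1:**
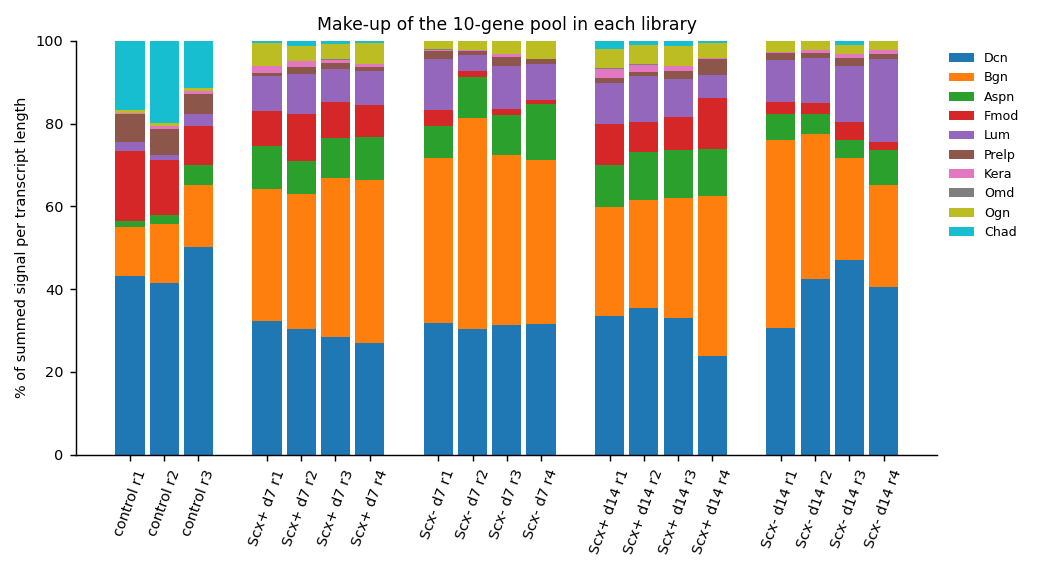
Make-up of the pool in each of the 19 libraries: each stacked bar is 1 library, and each colour is the share of 1 gene in the summed signal per transcript length, in percent. Chad and Prelp take a broad part of the 3 control bars, Bgn widens in every stimulated bar, and the Fmod band is at most 4.35% in Scx- bars and at least 7.33% in stimulated Scx+ bars.

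The early difference between genotypes was read from Scx- against Scx+ libraries of day 7. Fibromodulin and chondroadherin fell, 2 of the 10 genes (limma, adjusted p under 0.05), and 0 rose. Of all 16625 genes tested, 0.337% were lower and 0.433% higher. The median log2 difference over the 10 was -0.71, against 0.02 for all genes. The sign was negative for 9 of the 10. At day 14 no member passed, where 0.409% of all genes were lower and 0.108% higher, with 9 of 10 negative and a median of -1.11 against 0.02. Other lists moved beside the 10 genes. Of 9 tendon lineage genes, Scx included, 9 were negative at day 7 and 8 at day 14, with medians of -0.79 and -1.16. Scx and Tnmd, the tenomodulin gene, fell at both days and the thrombospondin gene Thbs4 at day 14. All 20 muscle fibre genes were positive at both days with 0 passed (medians 2.19 and 1.95). Of 12 macrophage and monocyte genes, 12 were positive at day 7 with 1 passed (median 0.51), and 12 were negative at day 14 with 0 passed (median -0.24). Of 5 erythroid genes, 4 fell at day 7 (median -6.01) and 0 at day 14 (median -1.66). The part of these tissues in the members' differences was not tested beyond the muscle covariate and the left-out libraries. In limma, 1207 genes had an unadjusted p under 0.05 at day 7 and 2429 at day 14.

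Fibromodulin, which binds type I collagen and limits the lateral growth of fibrils, had signals of 86796, 108653, 55264 and 51470 in Scx+ at day 7. In Scx- at day 7 they were 30303, 6825, 9323 and 7845. All 4 Scx- libraries lay below all 4 Scx+ libraries, with replicate 1 the highest of the Scx- libraries. The log2 difference was -2.70 ± 0.55 (SE), a 6.49-fold lower level (limma, adjusted p = 0.0244; 95% interval -3.86 to -1.53). At day 14 the signals were 128138, 78884, 96749 and 93033 in Scx+, and 11226, 12122, 60334 and 19780.4 in Scx-. The groups again did not overlap, but Scx- replicate 3 came close to the lowest Scx+ library. The log2 difference of -2.28 ± 0.55 did not pass (limma, adjusted p = 0.0897; 95% interval -3.45 to -1.12). Without Scx- day 14 replicate 3 it was -2.81 and passed (adjusted p = 0.0169). The effects at the 2 days were compared directly with an interaction term. It passed for 0 of the 10 genes (adjusted p = 1.0 each), where 0.018% of all genes passed and 721 had an unadjusted p under 0.05.

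Against the controls, at 99449, 33362 and 22236, fibromodulin fell in Scx- at day 7 by 1.92 ± 0.60 log2 units (limma, adjusted p = 0.0112). The control with the highest value overlapped the stimulated Scx+ libraries and the lowest lay below the highest Scx- library. Without control replicate 1 the difference was -1.31 and the call ended (adjusted p = 0.0802), as it did with library totals for Fmod (-1.22; adjusted p = 0.0962). In Scx+ the differences from control were 0.78 ± 0.60 at day 7 (adjusted p = 0.268) and 1.22 ± 0.60 at day 14 (adjusted p = 0.0919), and neither passed.

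Chondroadherin, a leucine-rich repeat protein without a sugar chain that binds collagen and integrin and is known from cartilage and tendon, was highest in the controls. Its control signals were 53199.5, 26675 and 14206. The Scx+ libraries stood at 3492, 6858, 2535 and 1565 at day 7 and at 13218, 5732, 8064 and 2451 at day 14. Every stimulated Scx+ library thus lay below every control. In Scx- the values were 594, 132, 159.649 and 118 at day 7. They were 401, 452, 7576 and 592 at day 14, where 3 libraries lay below all Scx+ libraries and replicate 3 lay among them. The genotype difference at day 7 was -3.98 ± 0.86 log2 units, a 15.8-fold lower level (limma, adjusted p = 0.0435). At day 14 it was -2.71 ± 0.86, with overlap (adjusted p = 0.210), and without Scx- day 14 replicate 3 it was -3.71 and passed (adjusted p = 0.0190).

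The day 7 calls of Fmod and Chad were close to the threshold. Both ended without any one of Scx+ replicates 1, 2 and 3 or Scx- replicates 2, 3 and 4, with a range of log2 differences over all left-out libraries of -3.18 to -2.46 for Fmod and -4.51 to -3.60 for Chad. The highest adjusted p was 0.121 for Fmod and 0.174 for Chad. With the muscle genes as a covariate both also ended, at -2.29 (adjusted p = 0.0900) and -3.25 (adjusted p = 0.0916). In a fit of the 2 groups alone the call of Fmod ended (adjusted p = 0.0653), and with library totals that of Chad (adjusted p = 0.0513).

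Because Chad is also a cartilage gene, cartilage markers were read beside it. At day 7, 9 of 9 tested cartilage genes were negative in Scx- against Scx+, with 0 passed and a median of -1.81. They took 0.0671 ± 0.0504% of the signal in Scx+ (0.0360 to 0.142%) and 0.0212 ± 0.0200% in Scx- (0.00524 to 0.0504%; SD, n = 4 each). Aggrecan (Acan) stood at 15781, 29759, 11404 and 10007 in Scx+ and at 15509.9, 1157, 4003 and 4928 in Scx-, where replicate 1 was also highest for Chad and Fmod. In the controls, where Chad was highest, Acan was at 735, 213 and 93.5 and the cartilage list at 0.00535 to 0.00817%. Other genes of the list differed from Acan. Col9a1 stood at 1837, 2943 and 1467 in controls and at 570 in the highest stimulated library. Col11a2 stood at 1950, 1586 and 1792 in controls and at 276 to 819 in Scx- at day 7. In Scx+ at day 7 against control, 8 of the 9 tested cartilage genes were positive and 1 negative. The type II collagen gene Col2a1 stood at 3.83 to 35.2 in controls. It reached 19452 in Scx+ day 7 replicate 2, which had the highest Chad (6858) and Fmod (108653) signals of its group. It reached 14846 in Scx- day 14 replicate 1, which had the lowest Chad (401) and Fmod (11226) signals of its group. It was 12.2 in Scx- day 14 replicate 3, the library with the high Chad value. The part of cartilage RNA in the Chad and Fmod results was not tested.

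**Figure D2:**
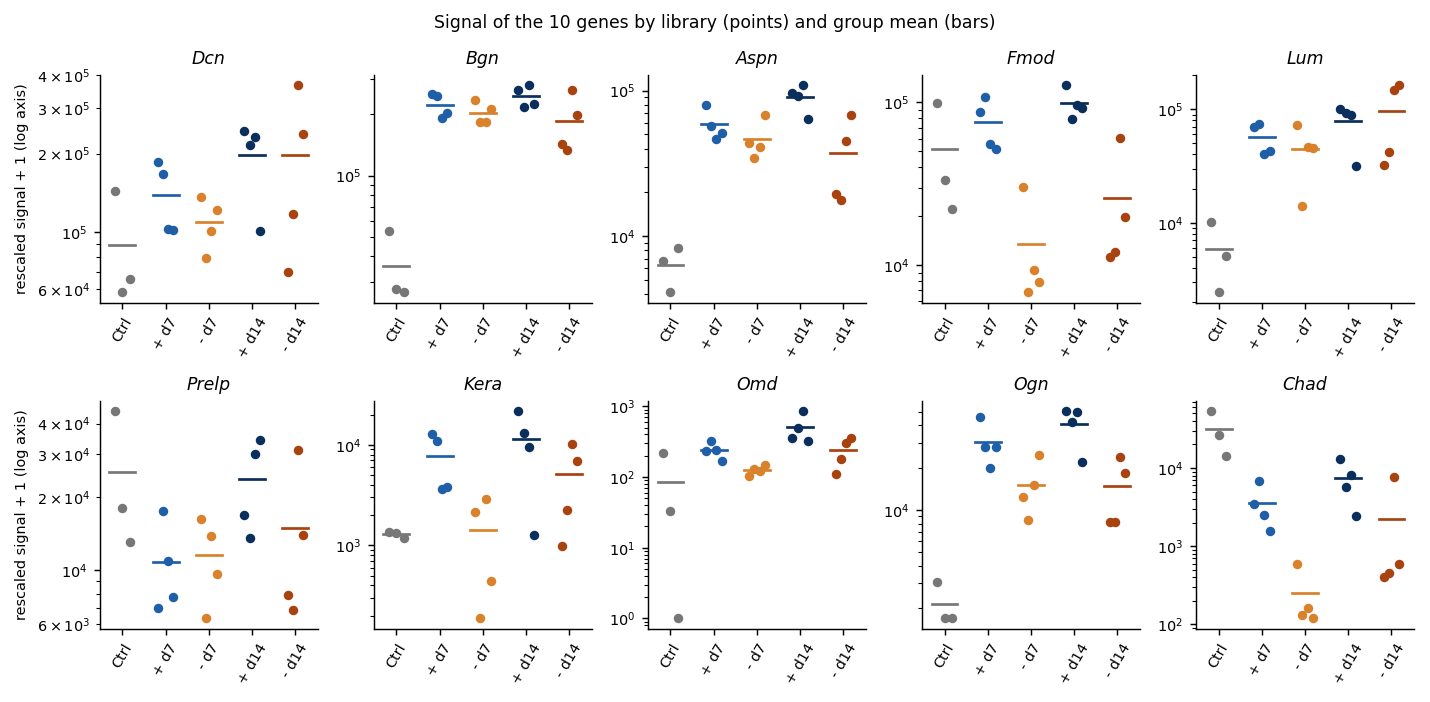
Rescaled signal of each gene in each library, on a log axis with 1 added: points are libraries, short lines are group means, and Ctrl, + and - stand for control, Scx+ and Scx- at the day given. The Scx- day 7 points lie below all Scx+ day 7 points for Fmod, Chad, Kera and Omd, and the control points for Bgn, Lum, Ogn and Aspn lie below every stimulated point.

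Decorin, a chondroitin or dermatan sulfate proteoglycan known to be abundant in mature tendon, did not differ beyond its spread between genotypes. Its signals at day 7 were 186078, 166282, 102533 and 101457 in Scx+ and 136098, 79373, 101030 and 121747 in Scx-. At day 14 they were 243813, 215256, 230919 and 101036 in Scx+ and 69982, 116827, 368001 and 238256 in Scx-. The ranges overlapped at both days, and the highest and the lowest day 14 values were both in Scx-. The log2 difference was -0.32 ± 0.45 at day 7 (95% interval -1.26 to 0.62; limma, adjusted p = 0.938) and -0.19 ± 0.45 at day 14 (interval -1.13 to 0.75; adjusted p = 0.869). Without Scx- day 14 replicates 1 and 2, the pair with the most muscle signal, the day 14 value was 0.66.

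Biglycan, the close relative of decorin, had a coefficient of variation of 12.1 to 13.7% in 3 of the 4 stimulated groups, 32.7% in Scx- at day 14 and 42.3% in the controls. Scx+ libraries stood at 253004, 245626, 192063 and 202295 at day 7 and Scx- at 234982, 183619, 183209 and 211381. At day 14 they stood at 262224, 217488, 279184 and 224580 against 142918, 132860, 264008 and 199083. The log2 difference was -0.13 ± 0.25 at day 7 (95% interval -0.66 to 0.39; limma, adjusted p = 0.962) and -0.46 ± 0.25 at day 14 (interval -0.98 to 0.06; adjusted p = 0.396).

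Asporin, a family member whose protein competes with decorin for collagen, gave different pictures at the 2 days, though the interaction did not pass (-1.13 ± 0.52; unadjusted p = 0.0440, limma). At day 7 its signals were 79479.7, 57369, 46252 and 51548 in Scx+ and 43457, 34300.3, 40720.3 and 68088 in Scx-. At day 14 Scx+ libraries stood at 96986, 92213, 109573 and 64199 and Scx- libraries at 19398, 17591, 44799 and 67711. A single pair crossed, Scx- replicate 4 and Scx+ replicate 4. The log2 difference was -0.35 ± 0.37 at day 7 (adjusted p = 0.906) and -1.48 ± 0.37 at day 14 (limma, adjusted p = 0.101). Without Scx- day 14 replicate 4 the day 14 difference was -1.84 and passed (adjusted p = 0.0154).

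Lumican, which shares a collagen site with fibromodulin, did not follow it. Its signals at day 7 were 69477, 74836, 40597 and 42509.5 in Scx+ and 73420.1, 13998, 46634 and 45898 in Scx-. At day 14 they were 100659, 93328, 89565 and 31934 in Scx+ and 32462, 42228, 148183 and 164197 in Scx-. The 2 highest libraries were Scx-, and the ranges overlapped at both days. The log2 difference was -0.51 ± 0.60 (95% interval -1.78 to 0.77; limma, adjusted p = 0.917) at day 7 and 0.08 ± 0.60 (interval -1.19 to 1.35; adjusted p = 0.969) at day 14, wide enough to hold changes in either direction.

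Keratocan, known for its role in the cornea, varied widely between libraries of a stimulated group. Scx+ libraries stood at 12850, 10876, 3671 and 3798 at day 7 and Scx- at 2139.7, 187, 2875 and 439, without overlap. The log2 difference of -2.97 ± 0.99 did not pass over all genes (limma, adjusted p = 0.315). At day 14 the values were 21572, 13111, 9593 and 1273 against 994, 2225, 10234 and 6973, with overlap and a difference of -1.11 ± 0.99 (adjusted p = 0.598). Its coefficient of variation was 61.1 to 92.6% in the 4 stimulated groups and 6.67% in the controls, which stood at 1363, 1324 and 1198.

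Prelp, whose protein binds heparan sulfate and collagen, did not pass by genotype. Its values ran from 6329 to 17457 in the 8 libraries of day 7. At day 14 they were 16795, 13563, 30062 and 34199.5 in Scx+ and 7895, 6851, 31082 and 13880.2 in Scx-, where 2 Scx- libraries lay below all Scx+ libraries and the other 2 lay among them. The difference was 0.10 ± 0.49 at day 7 (95% interval -0.94 to 1.13; adjusted p = 0.990) and -0.83 ± 0.49 at day 14 (interval -1.87 to 0.20; limma, adjusted p = 0.426). Osteomodulin, known from bone, was the lowest of the 10 on the scale per length, at 0.0232 to 0.0642% of the pool. It stood at 234, 325, 243 and 165 in Scx+ and 103, 129, 121 and 147 in Scx- at day 7, without overlap but far from the threshold (-0.91 ± 0.90; limma, adjusted p = 0.893).

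Osteoglycin, a member of another branch of the family, stood at 45823, 28148, 19845 and 28226 in Scx+ and at 12287, 8538, 15141 and 24517 in Scx- at day 7. At day 14 it stood at 50510.3, 41979, 49818 and 21889 in Scx+ and at 8266, 8237, 23932 and 18487 in Scx-. In each comparison 1 Scx- library lay above the lowest Scx+ library. The difference was -1.05 ± 0.40 at day 7 (limma, adjusted p = 0.451; 0.0423 for Ogn with sample quality weights) and -1.57 ± 0.40 at day 14 (adjusted p = 0.115). With Scx+ day 14 replicate 4 left out, or Scx- day 14 replicate 3, the day 14 difference passed (lowest adjusted p = 0.0441). On the deposited scale, which moved the median of all genes by -0.23 at day 14, Fmod, Ogn and Aspn passed at that day. Over all genes 993 were called there, against 86 after rescaling, and 3.73% of these calls were higher against 20.9% after rescaling.

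**Figure D3:**
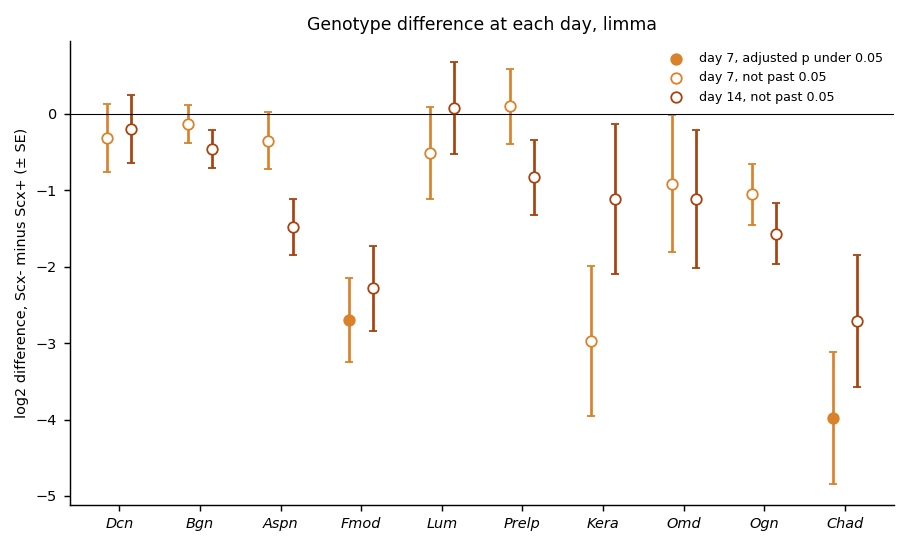
Log2 difference between Scx- and Scx+ for each gene at day 7 (left point of each pair) and day 14 (right point), with the SE of the fit as bars; filled points have a limma adjusted p under 0.05. Fmod and Chad at day 7 are the filled points, at -2.70 and -3.98, and Bgn and Dcn lie near the line at both days.

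Each stimulated group was also set against the controls; the 4 comparisons share the 3 control libraries, and stimulus and tamoxifen cannot be told apart in them. In Scx+ at day 7, 5 of the 10 genes rose (Bgn, Lum, Ogn, Aspn and Omd) and 1 fell (Chad), where 33.8% of all genes rose and 27.5% fell. In Scx+ at day 14, 6 rose, decorin being added, and 0 fell, against 30.9% and 25% of all genes. In Scx- at day 7, 5 rose and 2 fell, Fmod and Chad, against 32.3% and 25.9%. In Scx- at day 14, 5 rose and 1 fell, Chad, against 25.5% and 18.3%. The median log2 difference over the 10 genes was 2.53, 2.70, 1.37 and 1.92 in these 4 comparisons, against 0.18, 0.15, 0.14 and 0.12 for all genes. With library totals in place of medians of ratios the median of all genes moved by 0.46 to 0.67 in these comparisons. In Scx+ at day 7, 8 members in place of 5 then rose. Of all genes, 11420 were called there, 78.6% of them higher, against 10192 and 55.1% after medians of ratios. With the muscle genes as a covariate 3 members rose in Scx+ at day 7, Bgn, Ogn and Aspn. How many of all genes were called with this covariate was not recorded. Muscle genes took 25.2 to 30.2% of each control library and 0.0348 to 2.19% of the Scx+ day 7 libraries. The covariate thus nearly repeats the group label, and calls it ends against control cannot be read as a part of muscle RNA. Other lists shifted too. In the same order of groups, 8, 7, 5 and 5 of 9 tendon lineage genes rose and 0, 0, 1 and 1 fell (medians 3.33, 3.42, 1.58 and 1.48). Of 12 macrophage and monocyte genes, 12, 10, 12 and 8 rose. All 8 adipocyte genes fell in each comparison, and 0 of 8 endothelial genes rose. The part of these tissues in the members' differences from control was not tested.

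Biglycan stood at 53505, 27711 and 26672 in controls, below all 16 stimulated libraries, whose lowest was 132860. It rose by 2.70 ± 0.27 and 2.57 ± 0.27 log2 units in Scx+ and Scx- at day 7, and by 2.84 ± 0.27 and 2.38 ± 0.27 at day 14 (limma, highest adjusted p = 5.58e-06). Decorin, at 143246, 58554 and 65868 in controls, overlapped the controls in all 4 groups. At day 7 its differences were 0.71 ± 0.48 in Scx+ and 0.39 ± 0.48 in Scx-, against 1.19 ± 0.48 and 0.996 ± 0.48 at day 14. The value in Scx+ at day 14 passed by a narrow margin (limma, adjusted p = 0.0442). It passed without control replicate 1 or Scx+ day 14 replicate 4 but not without any other library of the comparison (adjusted p up to 0.164). The decorin call also ended on the deposited scale, without a filter, without robust moderation, with the replicate block and with the muscle covariate (Dcn, adjusted p = 0.0629, 0.0557, 0.0706, 0.0606 and 0.343).

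Asporin, at 6736, 4121 and 8278 in controls, rose by 3.23 ± 0.40 and 2.88 ± 0.40 in Scx+ and Scx- at day 7, and by 3.86 ± 0.40 and 2.38 ± 0.40 at day 14. Osteoglycin, at 3081, 1705 and 1688, rose by 3.81 ± 0.43 and 2.76 ± 0.43 at day 7 and by 4.23 ± 0.43 and 2.67 ± 0.43 at day 14. Lumican, at 10068, 2439 and 5060.17, rose by 3.45 ± 0.65 and 2.95 ± 0.65 at day 7 and by 3.85 ± 0.65 and 3.93 ± 0.65 at day 14 (limma, highest adjusted p = 0.00104 for these 3 genes). With the muscle covariate the Lum call in Scx+ at day 7 ended (2.05; adjusted p = 0.0534). No control library of the 3 genes reached the lowest stimulated library.

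Osteomodulin was listed at 219, 32.6 and 0 in controls, and its rises rest on that spread. It passed in all 4 groups, by 3.25 ± 0.97, 2.34 ± 0.97, 4.24 ± 0.97 and 3.13 ± 0.97 (Scx+ and Scx- at day 7, then at day 14). Without control replicate 3, the library listed at 0, the differences for Omd in Scx+ at day 7 and in Scx- at days 7 and 14 were 1.42, 0.51 and 1.30, and these 3 calls ended (limma, adjusted p = 0.0508, 0.484 and 0.0944). The Omd call in Scx- at day 7 ended without any library of the comparison but control replicate 1. It also ended on the deposited scale, without a filter, with a pseudocount of 8, with the replicate block, with the muscle covariate, without the muscle-rich pair and in a fit of the 2 groups alone (adjusted p = 0.0541 to 0.176). In fits of the 2 groups alone the other Omd calls against control at day 7 in Scx+ and day 14 in Scx- ended too (adjusted p = 0.0718 and 0.120). Keratocan did not pass in any group, the nearest being Scx+ at day 14 with 2.57 ± 1.06 (limma, adjusted p = 0.0512). That Kera value passed under 6 of the other settings, such as trimmed mean scaling (adjusted p = 0.0480) and the replicate block (adjusted p = 0.0448), and without Scx+ day 14 replicate 4.

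Chondroadherin and Prelp were on the other side. Chad fell by 3.12 ± 0.93 and 7.10 ± 0.93 in Scx+ and Scx- at day 7 (limma, adjusted p = 0.00870 and 1.41e-05) and by 4.84 ± 0.93 in Scx- at day 14 (adjusted p = 0.000803). In Scx+ at day 14 the difference of -2.13 ± 0.93 did not pass (adjusted p = 0.0628), though the groups did not overlap. Without Scx+ day 14 replicate 1 it was -2.61 and passed (adjusted p = 0.0480). Prelp, at 44937, 18054 and 13079 in controls, differed by -1.12 ± 0.53 and -1.02 ± 0.53 at day 7 and by 0.00 ± 0.53 and -0.83 ± 0.53 at day 14, with 0 calls. Muscle genes took 25.2 to 30.2% of each control library, so a level per tendon cell in the controls cannot be read from these values.

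**Figure D4:**
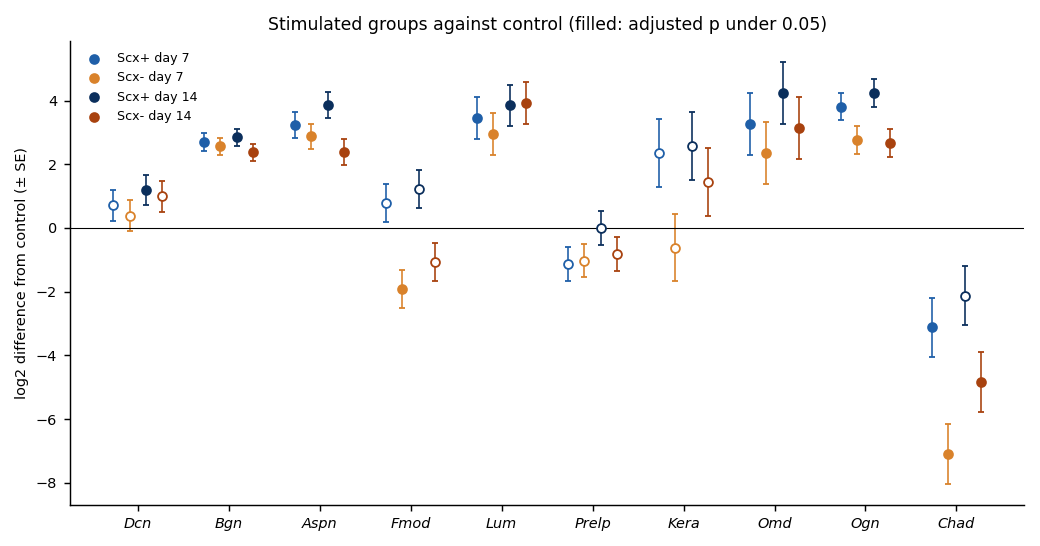
Log2 difference of each stimulated group from the controls for each gene, with the SE of the fit as bars; filled points have a limma adjusted p under 0.05, and the 4 points of a gene share the same 3 control libraries. Bgn, Aspn, Lum, Omd and Ogn are filled and above 0 in all 4 groups, and Chad is below 0 in all 4 groups and filled in 3 of them.

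Between day 7 and day 14 no member passed in either genotype, where 0.0301% of all genes passed in Scx+ and 5.25% in Scx-. In Scx+ all 10 genes were higher at day 14, with a median of 0.46 against 0.00 for all genes. The largest was Prelp at 1.12 ± 0.49, from 7004, 17457, 10924 and 7790.25 to 16795, 13563, 30062 and 34199.5 (limma, adjusted p = 0.427). In Scx- 7 of 10 were higher with a median of 0.70, and the largest was Chad at 2.26 ± 0.86 (limma, adjusted p = 0.139), which passed with the muscle covariate (3.05; adjusted p = 0.0419).

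Ratios within a library set the genes against each other without any scaling between libraries, and are given as a description with no test. Per transcript length, fibromodulin was 26.3, 36.8, 30.4 and 28.6% of decorin in Scx+ at day 7 and 12.5, 4.85, 5.20 and 3.63% in Scx-. At day 14 it was 29.6, 20.6, 23.6 and 51.9% in Scx+ and 9.04, 5.85, 9.24 and 4.68% in Scx-. The controls, at 39.1, 32.1 and 19.02%, lay with the Scx+ libraries, and every Scx- library lay below every other library. Scx- day 14 replicate 3, whose fibromodulin signal was nearest to Scx+, was at 9.24%, and its decorin signal was the highest of all 19 libraries.

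Chondroadherin was 38.9, 47.7 and 22.6% of decorin in controls and 1.61 to 5.67% in stimulated Scx+ libraries. In Scx- it was 0.102 to 0.457% at day 7 and 0.260 to 2.15% at day 14. Lumican was 2.99 to 5.52% of decorin in controls and 22.7 to 32.3% in the stimulated Scx+ libraries. It was 12.7 to 38.7% and 26.0 to 49.5% in Scx- at days 7 and 14, so the genotypes overlapped. Prelp was 39.0 to 50.8% of fibromodulin in controls and 6.97 to 31.7% in stimulated Scx+. It was 46.2 to 127% and 44.5 to 60.7% in Scx- at days 7 and 14, above all stimulated Scx+ libraries.

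**Figure D5:**
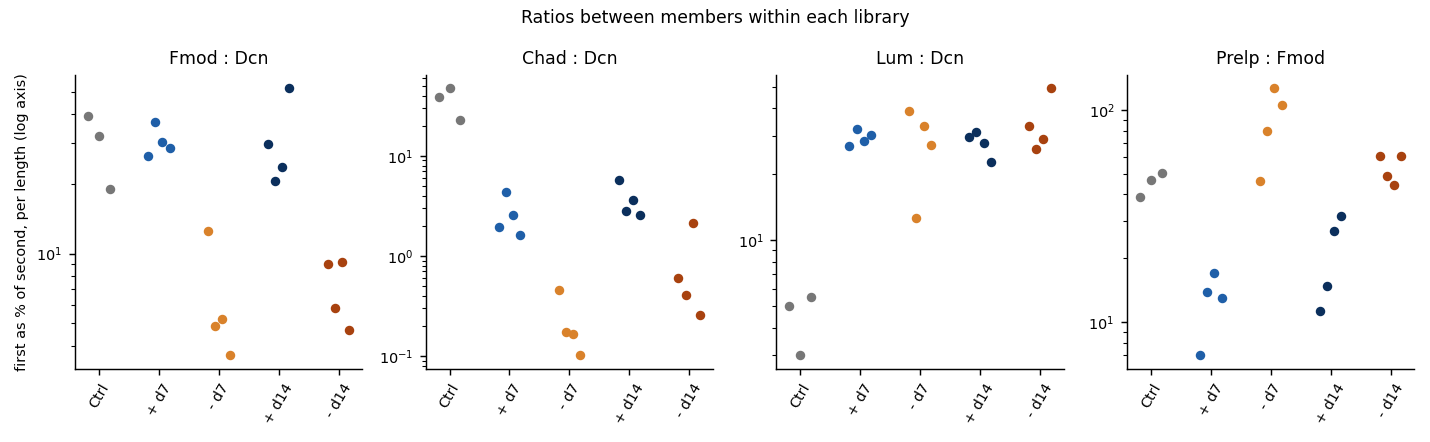
Ratio of 1 gene to another within each library, in percent and per transcript length, on log axes; each point is a library and Ctrl, + and - stand for control, Scx+ and Scx-. Fmod to Dcn is at most 12.5% in Scx- and at least 19.02% elsewhere, while Lum to Dcn overlaps between genotypes.

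The enzymes that build the sugar chains were read from lists of known genes. Of 22 tested genes of chondroitin and dermatan sulfate synthesis, 0 passed by genotype at either day, with 16 and 20 negative and medians of -0.29 and -0.39. The nearest was Chsy3, a chondroitin polymerase gene, chosen after its values were seen, at -1.57 ± 0.36 at day 14 (limma, adjusted p = 0.0594). Against control, 16 rose and 2 fell in Scx+ at each day, 16 rose and 4 fell in Scx- at day 7, and 14 rose and 4 fell in Scx- at day 14. Of all genes, 25.5 to 33.8% rose and 18.3 to 27.5% fell in these comparisons. Csgalnact1, which starts chondroitin chains, rose by 3.68 ± 0.29 in Scx+ and 3.69 ± 0.29 in Scx- at day 7. Chst14, which sulfates dermatan chains, rose by 2.85 ± 0.26 and 2.55 ± 0.26 in the same groups. Between days 7 and 14 in Scx-, Xylt2, a xylosyltransferase gene for the first sugar of the chain, fell by 0.91 on the log2 scale (limma, adjusted p = 0.00927). The Xylt2 call ended in a fit of the 2 groups alone (adjusted p = 0.0867) and without the muscle-rich pair (adjusted p = 0.140).

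Of 9 tested genes of keratan sulfate synthesis, the chain that fibromodulin, lumican and keratocan can carry, 1 fell by genotype at each day. It was Chst5, which encodes an N-acetylglucosamine sulfotransferase. Chst5 stood at 584, 173, 127 and 181 in Scx+ and at 24.7, 0, 3.69 and 11.2 in Scx- at day 7. At day 14 it stood at 1365, 393, 399 and 151 in Scx+ and at 0, 11.1, 2.15 and 14.5 in Scx-. Every Scx- library lay below every stimulated Scx+ library and within or below the range of the controls, at 39.2, 4.74 and 1.32. It fell by 4.80 ± 0.94 log2 units at day 7 (limma, adjusted p = 0.0176) and fell by 6.03 ± 0.94 at day 14 (adjusted p = 0.00666). The Chst5 call at day 7 ended when Scx+ replicates 1 or 2, or Scx- replicates 2 or 3, were left out (single libraries; adjusted p up to 0.0899) and with the muscle covariate (-4.11; adjusted p = 0.0719). At day 14 it held without any 1 library, with differences of -6.53 to -5.47, and ended without the muscle-rich pair (-5.70; adjusted p = 0.0887) and in a fit of the 2 groups alone (adjusted p = 0.0553).

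The galactose sulfotransferase gene Chst1 moved the other way from the controls. It fell by 1.32 ± 0.34 and 1.51 ± 0.34 in Scx+ and Scx- at day 7 (limma, adjusted p = 0.00304 and 0.00126), and differed by -0.18 ± 0.32 between genotypes (adjusted p = 0.957). Of the 9 keratan sulfate genes, 7 rose and 1 fell against control in Scx+ at day 7, 6 rose and 2 fell at day 14, and in Scx- 6 and 5 rose and 1 and 2 fell. The shares of all genes there were 25.5 to 33.8% higher and 18.3 to 27.5% lower.

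Of 8 other family members (Ecm2, Epyc, Optc, Podn, Podnl1, Nyx, Chadl and Tsku), 0 passed by genotype at either day, with medians of -0.26 and -0.56. Against control 4, 7, 5 and 4 rose in Scx+ at days 7 and 14 and Scx- at days 7 and 14, and 0 fell. In the same order 33.8, 30.9, 32.3 and 25.5% of all genes rose. Podnl1, a podocan-like member, was listed at 0 in the 3 controls and averaged 230.4 ± 32.0 in Scx+ and 128 ± 33.7 in Scx- at day 7 (SD, n = 4 each). Tsukushi (Tsku), a secreted member, averaged 891 ± 154 in controls (SD, n = 3), 3863 ± 686 in Scx+ and 3435 ± 372 in Scx- at day 7, and rose by 2.11 ± 0.29 and 1.95 ± 0.29 (limma, adjusted p = 1.04e-05 and 2.58e-05). Podn, which encodes podocan, averaged 1746 ± 358 in controls and 3152 ± 489.51 in Scx- at day 7, and rose by 0.86 ± 0.22 (limma, adjusted p = 0.00330). Between days 7 and 14 in Scx-, Tsku fell by 1.15 (limma, adjusted p = 0.0182), and this call ended with the muscle covariate, without the muscle-rich pair and in a fit of the 2 groups alone.

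Of 5 genes of proteases known to cut these proteoglycans, 0 passed by genotype, and 4, 5, 5 and 4 rose against control in the same order of groups, where 25.5 to 33.8% of all genes rose. Mmp13, a collagenase gene, averaged 32.4 ± 40.7 in controls (SD, n = 3), 6095 ± 3005 in Scx+ and 2037 ± 2423 in Scx- at day 7 (SD, n = 4 each). The membrane protease gene Mmp14 averaged 2657 ± 299, 89265 ± 18058 and 56719.8 ± 12757 in the same groups and rose by 5.05 ± 0.32 and 4.39 ± 0.32 (limma, adjusted p = 6.47e-09 and 2.23e-08). Its genotype difference at day 7 was -0.67 ± 0.30, without overlap (adjusted p = 0.630).

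The likeness of group profiles was described as the root mean square difference of group means on the log2 scale, over 5 groups and after centring each gene. Among the 10 genes, Aspn and Ogn were nearest to each other, at 0.25, and Ogn and Omd followed at 0.36. These 3 are neighbours on chromosome 13, but Bgn and Aspn, on different chromosomes, came next at 0.38. Neighbours in the other clusters were further apart, with Dcn and Lum at 1.10, Lum and Kera at 1.22, and Prelp and Fmod at 1.02. Among 11514 candidate genes, the nearest to Fmod were Atp6v0a4 at 0.35, Stk32c at 0.37 and Cpm at 0.41. The nearest to Chad were Clec3a at 0.74, Cilp2 at 0.85 and Gm1987 at 1.09, and the nearest to Dcn, Avpi1 at 0.09. With 5 group means per gene, a small distance is easy to reach for a profile with little change.

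In the authors' deposited table, which gave values for 9 of the 10 genes, all but Chad, 2 members were lower in Scx- at day 7 with an adjusted p under 0.05 and 2 at day 14. These were Fmod, at -2.48 ± 0.65 (adjusted p = 0.00646, authors' deposited table), and Omd, at -0.96 ± 0.25 (adjusted p = 0.00570), at day 7. At day 14 the authors' deposited table has Fmod at -1.89 ± 0.50 (adjusted p = 0.0237) and Ogn at -1.53 ± 0.42 (adjusted p = 0.0293). Omd at day 7 and Fmod and Ogn at day 14 thus pass in that table and not in the limma fit used here. In either direction, that table had 755 of 15951 genes under 0.05 at day 7 and 177 at day 14. The limma fit called 128 and 86 of 16625 genes at these days. Against control, Omd passes in 0 of 4 comparisons of the authors' deposited table (adjusted p = 0.215, 0.671, 0.141 and 0.359 for Scx+ and Scx- at day 7, then at day 14), where the limma fit called it in 4. Over all genes and in the same order, the limma fit called 10192, 9677, 9293 and 7291. That table had 9820, 9110, 7987 and 5101 under 0.05. Kera is higher there in Scx+ at days 7 and 14 and in Scx- at day 14 (authors' deposited table, adjusted p = 1.74e-08, 2.49e-06 and 0.0125), where the limma fit made 0 calls. Prelp is lower at day 7 in both genotypes in the authors' deposited table (Scx+ -1.22 ± 0.45, adjusted p = 0.0131; Scx- -1.10 ± 0.48, adjusted p = 0.0408), again with 0 limma calls. From day 7 to 14 in Scx+, Prelp and Omd are higher in the authors' deposited table (1.15 and 1.05; adjusted p = 0.0304 and 0.0420), where no member passed in the limma fit. Of all genes, 796 were under 0.05 in that table and 5 in the limma fit for these days. Fmod in Scx- at day 7 and Dcn in Scx+ at day 14 pass against control in both (authors' deposited table, adjusted p = 0.00658 and 0.00958).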

How the data were processed

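RNA was sequenced from 19 plantaris tendon libraries. The submitters' processing notes name FastQC, STAR, DESeq2 and the mm10 genome; versions and the strand setting are not given in the sources used here. The authors deposited 1 table of scaled gene signal, which is not whole reads (23.2 to 59.3% of low values per library lay within 0.1 of a whole multiple), so the depth is unknown, no count test was run and no counting interval is given. The authors also deposited a table of their own log2 differences with p-values.

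Signals were rescaled here by medians of ratios, taken from the 13703 genes that no library listed at 0 (factors 0.838 to 1.09). The 16625 genes at 10 or more in at least 3 libraries were fitted as log2(signal + 2) with limma 3.58.1 in R 4.3.3 (trend, robust, all 5 groups, no covariate), with Benjamini-Hochberg adjustment over all of them and a threshold of 0.05. Fold changes are on that scale. The added 2 narrows the change of low genes, but a library listed at 0 can widen it. Omd averaged 241 in Scx+ at day 7 and 83.8 in controls, a smaller ratio than its log2 difference of 3.25 gives. In simulated day 7 data, 88% of 100 genes with a log2 change of 2 and 96% of 100 with 3 were recovered, and 4 unchanged genes of 16249 simulated were called. The changed genes were drawn from those with higher signal, with independent normal noise for each gene. Variation shared between genes, such as that of muscle content, was not simulated, so these rates may not hold for the members. Members and lists were chosen with earlier results of these data known. The text names all 10 members, list genes past the threshold by genotype, up to 4 per list in other comparisons, and, for Fmod, Chad and Dcn, the 3 genes with the nearest profile whose mean reached 5 ppm of library totals. For Dcn the nearest 1 is given. The 4 erythroid genes and the 1 macrophage and monocyte gene past the threshold by genotype at day 7 are given as counts, without names. Alternatives changed the scaling, filter, pseudocount, moderation, libraries, covariate, weights and replicate block.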

Additional observations from a re-analysis of the deposited data

Results flagged for a closer look

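In 4 of the 40 groups of 4 libraries tested, 1 library stood apart from the other 3 of its group by Dixon's criterion. The criterion was applied to signals without a log. For normally spread values chance gives about 1 in 20 groups, and skewed signals can give more. Log2 values were not tested in this way, so the 4 groups cannot be read as more than chance gives. In Scx- at day 7, replicate 1 had the highest Fmod signal, 30303, with the next at 9323, and the highest Chad signal, 594, with the next at 159.649. In Scx- at day 14, replicate 3 had a Chad signal of 7576, with the next at 592. In Scx+ at day 14, replicate 4 had the lowest Lum signal, 31934, with the next at 89565. The groups of 3 controls were not tested in this way.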

How the results depend on the processing

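No read depth is known, so precision rests on 3 or 4 libraries a group; a lost call is not a reversal. Over 1930 values recomputed, 1786 kept their direction and side of the threshold, 48 lost and 35 gained a call, and 61 changed sign, none of them a value that had passed; the cause was not tested. Of the members lower in Scx- at day 7 (2), library totals left 1 (Fmod), the 2 groups alone 1 (Chad), the replicate block 1 (Fmod), the muscle covariate 0, and leaving out 1 library 0 to 2. At day 14 (0 lower) the deposited scale gave 3, with 993 of all genes called in place of 86, and leaving out 1 library 0 to 3. The 5 that rose against control in Scx+ at day 7 became 8 with library totals. Of all genes, 11420 were then called in place of 10192. With the muscle covariate the 5 became 3. The 1 that fell there became 1 to 2 without 1 library (Prelp added without control replicate 3 or Scx+ day 7 replicate 2). In Scx+ at day 14 (0 lower) it was 1 without robust moderation, in the 2 groups alone and with the muscle covariate, and 0 to 1 without 1 library. In Scx- the lower counts were 1 with library totals (Chad; main 2) and 1 to 2 without 1 library at day 7, and 1 to 2 at day 14, Fmod being added without Scx- replicate 3. From day 7 to 14 in Scx-, 1 rose with the muscle covariate (Chad; main 0).

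Sign changes are given as log2 differences. With library totals they were Lum -0.053 by genotype at day 14, Dcn -0.027 in the interaction, Kera 0.084 in Scx- day 7 against control and Prelp -0.027 from day 7 to 14 in Scx-. On the deposited scale they were Lum -0.16, Dcn -0.025 and Prelp -0.067 in the same comparisons, and Prelp -0.10 in Scx+ day 14 against control. That Prelp value was -0.021 with the replicate block, -0.29 with the muscle covariate, -0.0027 without the muscle-rich pair and -0.080 with quality weights. With the muscle covariate Dcn, Bgn and Lum were 0.13, 0.060 and 0.043 by genotype at day 7, and Dcn 0.23 at day 14. Against control at day 7, where this covariate can hardly be told apart from the group, Fmod and Dcn were -0.25 and -0.45 in Scx+, and Dcn -0.31 in Scx-. From day 7 to 14 in Scx-, Bgn was 0.022 and Ogn 0.35. Quality weights gave Dcn 0.014 by genotype at day 14 and Ogn 0.38 from day 7 to 14 in Scx-. Without the muscle-rich pair, Dcn and Kera were 0.66 and 0.14 by genotype at day 14. Bgn, Ogn and Omd were then 0.040, 0.16 and 0.41 in the interaction, and Bgn, Ogn and Aspn 0.18, 0.58 and 0.29 from day 7 to 14 in Scx-. Leaving out 1 library gave ranges that crossed 0 for Dcn (-0.58 to 0.22) and Lum (-0.31 to 0.49) by genotype at day 14, Prelp (-0.10 to 0.36) at day 7, and Dcn (-0.27 to 0.54), Fmod (-0.12 to 0.90) and Omd (-0.45 to 0.13) in the interaction. They also did so for Kera (-0.29 to 1.07) from day 7 to 14 in Scx+, Ogn (-0.38 to 0.17) and Prelp (-0.25 to 0.48) in Scx-, Kera (-1.20 to 0.11) in Scx- day 7 against control and Prelp (-0.39 to 0.51) in Scx+ day 14 against control.

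Over all genes, library totals gave 78.6, 79.9, 81.9 and 84.1% of calls against control as higher (55.1, 55.3, 55.5 and 58.2% after medians of ratios; days 7 and 14 of Scx+, then of Scx-), and the deposited scale 35.2% in Scx- at day 14. From day 7 to 14 in Scx- the share was 26.6%, 8.45% with library totals and 4.30% on the deposited scale, with 873, 1349 and 2604 calls. The replicate numbers did not pair the libraries: of 36 same-number pairs, 7 deviated together with a correlation over 0.1 (range -0.43 to 0.35), and every library correlated best with its own number in 1 of 10 pairs of groups. Beside the day 7 count and the values above, the replicate block ended the Dcn call and gave a Kera call in Scx+ day 14 against control, and ended the Omd call in Scx- day 7 against control. It changed no other call of a member.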
